A study of Mus musculus with 7 samples.

Results

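The genes described here are the ligands, receptors, Smads, Id genes and secreted antagonists of the bone morphogenetic protein (BMP) and transforming growth factor beta (TGF-beta) pathways. They were chosen by symbol alone (Bmp, Bmpr, Tgfb1 to Tgfb3, Tgfbr1 and Tgfbr2, Acvr, Smad, Id1 to Id4, Inhb, Gdf, Nog, Chrd and Grem1), which gave 54 of the 19257 genes in the deposited table, 53 of which are described. Of these, 41 reached a mean normalized count of 10 and entered the comparison, together with 14782 genes in all. The tissue was endpoint brain tumor from a mouse glioma model, collected with the help of fluorescence microscopy and read by bulk RNA-Seq, with 1 brain per library. Both groups were made by in utero electroporation of the progenitor cells along the lateral ventricles with a single construct that carried Cas9 and guides, which cut tumor suppressors including Trp53 and Nf1, on CD-1 and C57BL/6 backgrounds. The 3xCR group (3 libraries, replicates 2, 3 and 4, with the genotype label "control") had this construct without the added glypican. The GPC6 group (4 libraries, replicates 1 to 4) also received GPC6, a cell-surface glypican, for overexpression from a piggyBac transposon, and the same transposon system gave the tumor cells a GFP reporter. Male and female animals were used, and their sex, batch, litter and age in days are not given for the single libraries.

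BMPs, growth and differentiation factors (GDFs), activins and TGF-betas are secreted dimers that bring a type I and a type II receptor kinase together on the cell surface. BMP receptors phosphorylate Smad1, Smad5 and Smad9, TGF-beta and activin receptors phosphorylate Smad2 and Smad3, and both groups of Smads bind Smad4 and enter the nucleus. Id genes are the best known direct targets of BMP signaling, and their products hold back basic helix-loop-helix factors. In the brain BMPs steer progenitors toward astrocytes and away from oligodendrocytes, TGF-beta shapes microglia and vessels, and glypicans are known to bind ligands of this family.

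No gene of the pathway passed the threshold between GPC6 and 3xCR tumors after adjustment over all genes. The groups did not overlap for 2 of the 41 members tested, Id3 and Id1. That is 4.88% of the members, beside 6.32% of all genes tested that did not overlap in either direction. Id3 was lower in each of the 4 GPC6 tumors than in any 3xCR tumor (log2 fold change -0.84 with a standard error of 0.23), and so was Id1 (-0.52 with a standard error of 0.29). The highest log2 fold change in limma was that of the activin and Nodal receptor Acvr1c (2.21 with a standard error of 1.13), whose groups overlapped. It was 1.27 without 3xCR replicate 4. The groups overlapped for the other 39 members tested.

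Before these values are read, the libraries need a description. They held 7197692 to 18879762 reads on genes (median 10566182), of which the 53 members described took 0.117% to 0.173%. A count of 0 reads allowed up to 1.64 to 4.64 normalized counts, depending on the library, and this limit covers counting error only. Gpc6 itself (chr14:116925315-117976544 in GRCm38) had normalized counts of 217, 226 and 126 in the 3xCR tumors and of 675, 263, 3434 and 5084 in GPC6 replicates 1 to 4. All GPC6 tumors were above all 3xCR tumors, GPC6 replicate 2 by a small step only (exact two-sided permutation test, p = 0.057, the smallest that 3 against 4 allows; limma with Benjamini-Hochberg adjustment, log2 fold change 2.85, adjusted p = 0.73). On the first principal component, with 54.8% of the variance, GPC6 replicate 1 and 3xCR replicate 4 stood at opposite ends.

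Cell type markers differed between these libraries as well. The summed neuronal markers had 10736, 8577 and 6888 normalized counts in 3xCR replicates 2 to 4 and 58008, 9678, 29499 and 11713 in GPC6 replicates 1 to 4. The summed microglial markers had 28647, 36031 and 51933 in the 3xCR tumors and 15229, 22055, 24645 and 25782 in the GPC6 tumors, with no overlap between the groups. Summed markers of oligodendrocyte precursors were highest in GPC6 replicate 2 (74713) and 3xCR replicate 2 (53654), and those of mural cells and fibroblasts reached 29039 in 3xCR replicate 4 against 759 to 3449 in the other libraries. GPC6 replicate 1 had 530 summed proliferation markers against 4327 to 11891 in the other libraries. Its summed choroid plexus markers were 12667 against 63.8 to 3758, and its astrocyte and ependymal sums were also the highest. The 8 proliferation markers had a median log2 fold change of -0.60, and of 0.30 without GPC6 replicate 1. All markers of neurons, astrocytes, oligodendrocytes, oligodendrocyte precursors, microglia, endothelial and mural cells were above 0 in every library, while 3 of 7 choroid plexus markers and 1 of 5 ependymal markers were at 0 in at least 1. In bulk tissue, fewer cells of a type and less RNA per cell cannot be told apart. The part of cell makeup in the results that follow was not tested.

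The members spanned a wide range of levels, which were compared per kilobase of merged exons. Id3 was the most abundant, with a mean of 1074 normalized counts per kb over the 7 libraries (range 694 to 1572). Id2 followed with 577 (293 to 887) and Id1 with 259 (142 to 320.0), so that each Id gene overlapped its neighbor in this order. Next came the BMP type I receptor Bmpr1a with 172 per kb, the common partner Smad4 with 146, the BMP-regulated Smad5 with 142 and the ligand Bmp4 with 136. The ranges of these 4 genes overlapped one another, and that of Bmp4 was the widest, from 52.8 to 331 per kb. Tgfbr1 (128), Bmp1 (124), Smad3 (104) and Tgfbr2 (102) closed the group above 100 per kb. The least abundant members tested were Gdf10 (4.31), Acvr1c (4.23), Inhba (3.48) and Bmp3 (2.91).

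**Figure D1:**
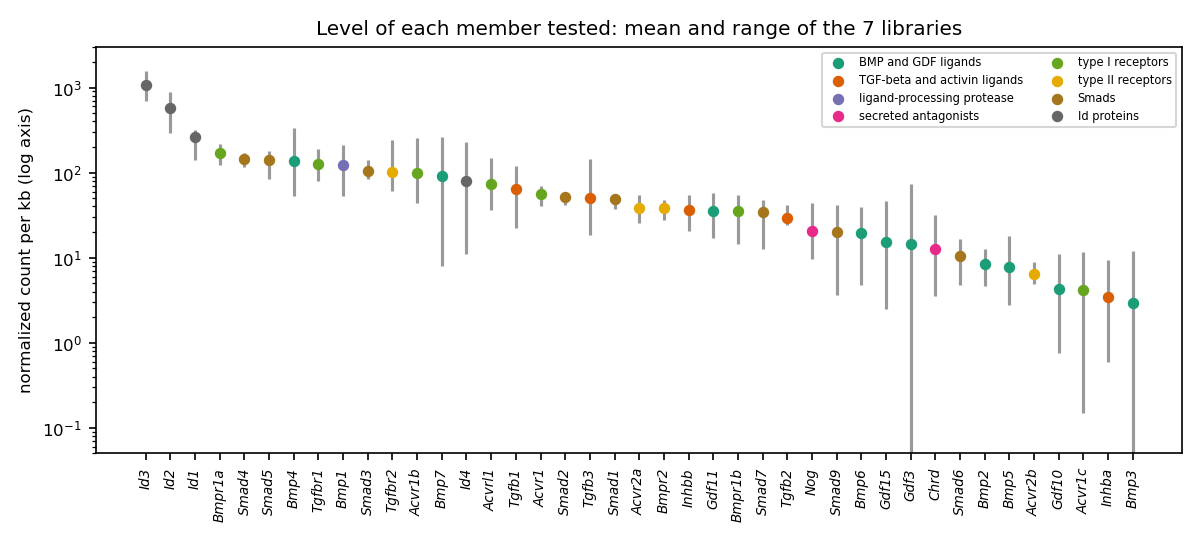
Normalized count per kb of merged exons on a log axis for the 41 members tested, in order of their mean; points are means over the 7 libraries, lines run from the lowest to the highest library, and colors give the class. Id3 has the highest mean (1074 per kb) and Bmp3 the lowest (2.91), and the lines of Gdf3 and Bmp3 reach the foot of the axis because each gene was at 0 in 1 library.

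A further 12 members stayed under the filter and were not tested. These were the ligands Bmp8a, Bmp8b, Bmp10, Bmp15, Gdf2, Gdf5, Gdf6, Gdf7 and Gdf9, the inhibin beta chains Inhbc and Inhbe, and the antagonist Grem1. The highest normalized count of any of them in any library was 31.8, for Grem1 in 3xCR replicate 4.

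Over the 41 members tested, limma on log2(normalized count + 1) called 0 at an adjusted p under 0.05 (smallest adjusted p = 0.73), and over all genes it called 0%. At an unadjusted p under 0.05, 1 of the 41 members was lower in GPC6 (Id3) against 1.92% of all genes, and 0 were higher against 2.74%. On the recovered reads, 2 members had an unadjusted p under 0.05 with edgeR, where 6.7% of all genes did, and 5 with DESeq2, where 12.1% of all genes did. After adjustment 0 passed with either, and DESeq2 gave no adjusted p to 19 of the 41. The groups did not overlap for 2 members, both lower in GPC6 (Id1 and Id3), where 3.52% of all genes were lower without overlap, and for 0 members higher in GPC6, where 2.8% of all genes were. In all, 15 members had a positive and 26 a negative log2 fold change (36.6% positive, beside 48.3% of all genes tested). Their median log2 fold change was -0.20 beside -0.02 over all genes tested. Since 1 of 41 is near the share over the whole table, these counts are no result about the members as a set. The split by direction was not tested.

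**Figure D2:**
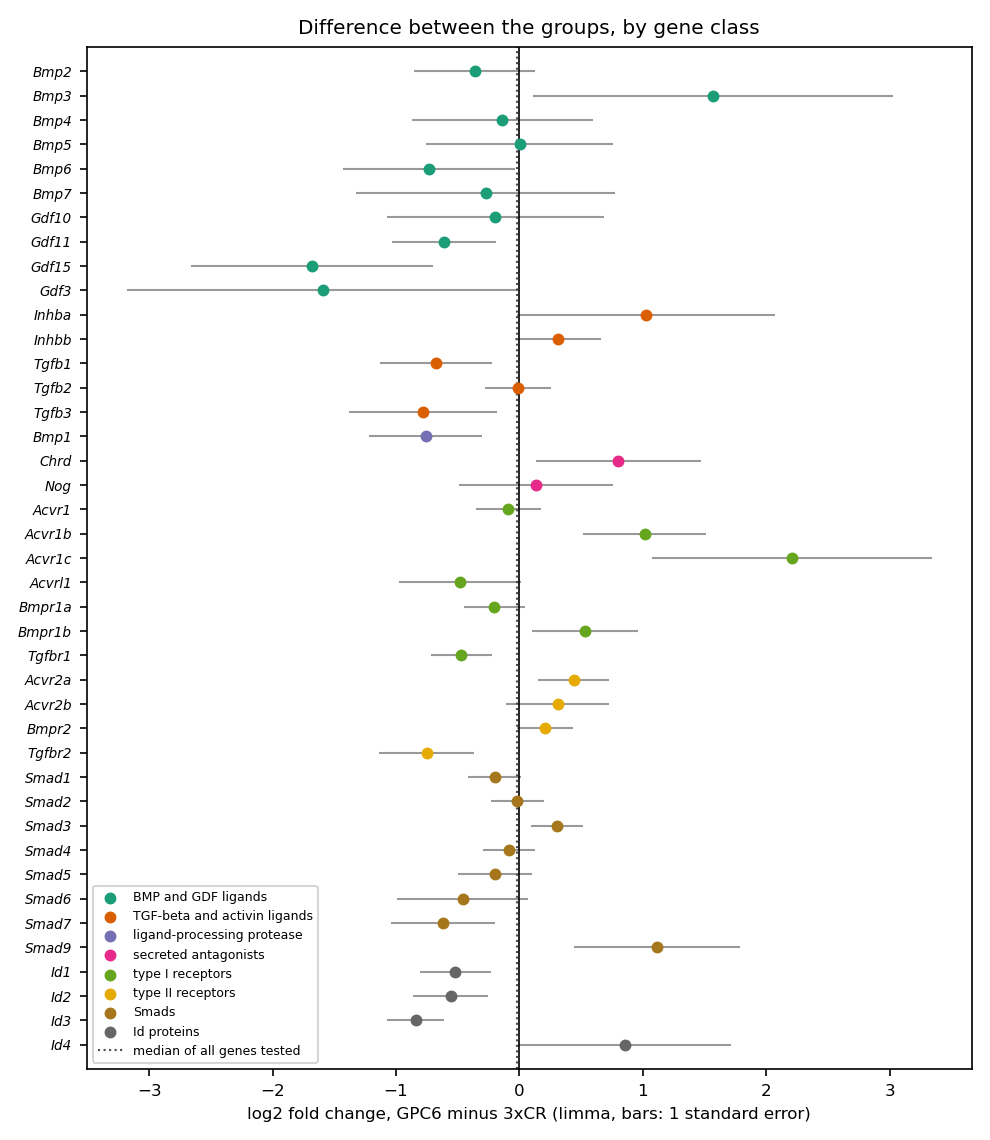
Log2 fold change (GPC6 minus 3xCR, limma on log2(normalized count + 1)) of the 41 members tested, with bars of 1 standard error and colors by class; the dotted line is the median of all genes tested (-0.02). Many bars cross 0, Id3 lies at -0.84 with a short bar, and Acvr1c lies farthest to the right at 2.21 with a long one.

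The 4 Id genes encode helix-loop-helix proteins without a DNA-binding region, and 3 of them had a negative log2 fold change (median of the class -0.54, and -0.33 without GPC6 replicate 4). Values are given here and below as normalized counts, first for 3xCR replicates 2, 3 and 4 and then for GPC6 replicates 1, 2, 3 and 4. Id3 (chr4:136143497-136145755) had 2816, 2186 and 2678 in 3xCR tumors and 1243, 1291, 1964 and 1291 in GPC6 tumors. The GPC6 tumors clustered tightly apart from replicate 3, which came nearest to the 3xCR tumors without reaching them. The means were 2560.1 ± 331 (SD, n = 3) and 1447 ± 345 (SD, n = 4). limma gave an unadjusted p of 0.0070 and an adjusted p of 0.73, and the exact two-sided permutation test gave p = 0.057. With any 1 library left out, the log2 fold change of Id3 stayed between -0.997 and -0.768. With libraries weighted by their fit (arrayWeights of limma) it shrank to -0.33, with an unadjusted p of 0.069.

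Id1 (chr2:152736251-152737410), the Id gene most often used as a readout of BMP signaling, had 364, 371 and 338 in 3xCR tumors and 227, 330.0, 311 and 165 in GPC6 tumors. The 3xCR tumors were nearly equal, and the highest GPC6 tumor was just under them, so that the separation was narrow. The means were 358 ± 17.2 (SD, n = 3) and 258 ± 76.8 (SD, n = 4), and limma gave an unadjusted p of 0.11. Without GPC6 replicate 4, its lowest tumor, the log2 fold change of Id1 was -0.32. Id2 (chr12:25093799-25097140) had 2163, 1436 and 1521 in 3xCR tumors and 1408, 1465, 1147 and 714 in GPC6 tumors. Its groups overlapped by a single pair of tumors, with a log2 fold change of -0.56 (standard error 0.30; exact two-sided permutation test, p = 0.11), and -0.33 without GPC6 replicate 4. Id4 (chr13:48261228-48266026) went its own way, with 437, 213 and 42.8 in 3xCR tumors and 876, 149, 225 and 234 in GPC6 tumors. Its log2 fold change was 0.85 with a standard error of 0.86, and without 3xCR replicate 4 it was -0.08. That library, with the lowest Id4, also had the lowest summed astrocyte markers (15353 normalized counts against 27166 to 64076 in the others). The microglial markers were likewise higher in every 3xCR tumor as a sum, and 4 of 8 were lower in GPC6 without overlap, beside 3.52% of all genes tested. Within the groups the order was mixed. 3xCR replicate 2 had the fewest microglial markers of its group (28647) and the highest Id3 (2816), while GPC6 replicate 1 was the lowest of its group in both. A relation between the 2 was not tested.

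**Figure D3:**
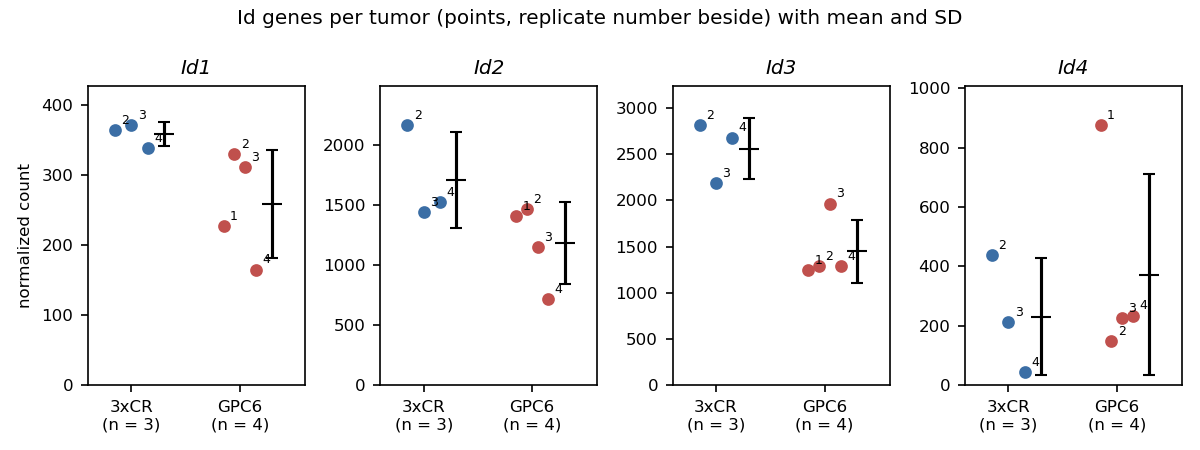
Normalized counts of the 4 Id genes in each tumor (points, with the replicate number beside them) for 3xCR (n = 3) and GPC6 (n = 4), with the group mean and SD as bars; each panel has its own axis from 0. For Id1 and Id3 all GPC6 points lie under all 3xCR points, for Id2 a single pair overlaps, and for Id4 the points mix.

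Sequences before the RefSeq start sites of Id3, Id2 and Id4 are shown because Id genes are direct Smad targets and Id3 had the lowest p of all members. A search of the 250 bases before each RefSeq start site (RefSeq, GRCm38.p6, both strands) looked for GTCT, the core Smad-binding sequence, and for GGCGCC, a GC-rich sequence that BMP-regulated Smads bind. GTCT is so short that 82.9% of all 32851 promoters hold it, and GGCGCC is in 9.59%. The 38 members with an entry had 45 promoters, of which 37 (82.2%) held GTCT and 9 (20%) held GGCGCC. The 250 bases of Id3 lie inside an annotated first exon, so only the 30 bases around each GTCT are printed (68 and 166 bases before the start site). The window of Id2 lies inside the annotated gene (chr12:25093799-25097140, reverse strand). Of it, the 89 bases outside annotated exons are printed, and these lie between exons of the gene rather than before it. For Id4 all 250 bases are printed. Capitals mark GTCT, its reverse complement AGAC, or GGCGCC. The stretches lie at chr4:136143741-136143770 and chr4:136143643-136143672 on the forward strand for Id3, at chr12:25096254-25096342 on the reverse strand for Id2 and at chr13:48260866-48261115 on the forward strand for Id4.
Id3, near: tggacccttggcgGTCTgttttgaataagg
Id3, far: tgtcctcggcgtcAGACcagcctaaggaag
Id2: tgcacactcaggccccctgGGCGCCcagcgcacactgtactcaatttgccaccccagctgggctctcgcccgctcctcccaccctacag
Id4: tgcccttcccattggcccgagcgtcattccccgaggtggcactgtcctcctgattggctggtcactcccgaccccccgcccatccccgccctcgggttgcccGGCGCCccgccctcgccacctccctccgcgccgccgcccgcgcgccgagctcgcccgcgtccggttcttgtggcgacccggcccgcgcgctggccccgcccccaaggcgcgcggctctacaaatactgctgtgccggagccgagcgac
The window of Id3 thus held GTCT at 2 places and no GGCGCC, while Id2 and Id4, which differed in direction between the groups, each held 1 GGCGCC (231 and 148 bases before the start site). The window of Id2 also held 1 GTCT, 23 bases before the start site and outside the printed bases, and that of Id4 held 0.

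Among the BMP and GDF ligands, 10 of 19 were abundant enough to test, of which 2 had a positive and 8 a negative log2 fold change (median -0.32). With limma, 0 of them were at an unadjusted p under 0.05. With 1 library left out the median lay between -0.59 (without GPC6 replicate 1) and -0.096 (without GPC6 replicate 4, with a split of 4 to 6). Bmp4 (chr14:46383520-46390669), a patterning ligand of the dorsal forebrain, had 744, 175 and 119 in 3xCR tumors and 139, 617, 170.3 and 180.04 in GPC6 tumors. One tumor of each group, replicate 2 in both, was far above the rest, and the log2 fold change was -0.14 with a standard error of 0.73. Bmp5 followed the same tumors, with 72.4, 19.5 and 11.1 in 3xCR and 29.4, 54.3, 20.4 and 12.3 in GPC6. These were also the 2 libraries with the highest summed markers of oligodendrocyte precursors. Bmp7 (chr2:172868012-172940321), the ligand with the highest mean count of the class, ranged over 33.2-fold, with 406, 366 and 144 in 3xCR tumors and 247, 1059, 324 and 31.9 in GPC6 tumors. Both its highest and its lowest value were in GPC6 tumors. The log2 fold change of Bmp7 was -0.27 with a standard error of 1.05, and without GPC6 replicate 4 it was 0.66.

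The remaining tested ligands of this class had lower mean counts than Bmp4 and Bmp7. Gdf15, a stress-induced cytokine distant from the BMPs, had 26.9, 15.8 and 85.6 in 3xCR tumors and 4.64, 5.93, 54.1 and 5.14 in GPC6 tumors. Of the GPC6 tumors 3 were under every 3xCR tumor and replicate 3 was not, and the log2 fold change was the lowest of the class at -1.68 (standard error 0.98; limma, unadjusted p = 0.13). Bmp3, an atypical ligand that opposes other BMPs, had 4.38, 1.86 and 6.91 in 3xCR tumors and 35.5, 0, 88.7 and 13.4 in GPC6 tumors, for a log2 fold change of 1.57 with a standard error of 1.46. On the reads it was 2.97 with edgeR and 3.00 with DESeq2, above the 2.11 and 2.16 of Acvr1c with the same tools. For Bmp3 the unadjusted p was 0.31 with limma and 0.028 with DESeq2. Its value of 0 in GPC6 replicate 2 allows up to 2.96 normalized counts. Bmp2, Bmp6, Gdf3, Gdf10 and Gdf11 had log2 fold changes between -1.59 and -0.20, none with an unadjusted limma p under 0.05 in the main fit. Gdf3, a ligand of the Nodal type, reached 177 in 3xCR replicate 4 and was at most 34.0 elsewhere.

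Of the TGF-betas and activin chains, 5 of 7 were tested, 2 with a positive and 3 with a negative log2 fold change (median -0.01, and -0.18 to 0.076 with 1 library left out). Tgfb1 (chr7:25687002-25705077), the TGF-beta that microglia and macrophages secrete, had 275, 335 and 598 in 3xCR tumors and 111, 286, 313 and 320.0 in GPC6 tumors. 3xCR replicate 4 was the highest and GPC6 replicate 1 the lowest, and the same 2 libraries held the most and the fewest summed microglial markers. The difference of -0.68 (standard error 0.45) had an unadjusted limma p of 0.17. Tgfb2 (chr1:186622792-186705989), the isoform of astrocytes and neurons, was the most even, with 181, 159 and 171 in 3xCR tumors and 239.6, 141, 148 and 163 in GPC6 tumors. Its means of 170.4 ± 10.9 (SD, n = 3) and 173 ± 45.3 (SD, n = 4) gave a log2 fold change of -0.01 with a standard error of 0.27. Tgfb3 (chr12:86056745-86079041) had 128, 111 and 488 in 3xCR tumors and 176, 63.2, 154 and 86.4 in GPC6 tumors. The one high value was in 3xCR replicate 4, which also held by far the most summed mural and fibroblast markers, and the log2 fold change was -0.78 with a standard error of 0.60 and -0.11 without that library. Inhba, the beta A chain of activin A, had 3.84, 4.65 and 34.5 in 3xCR tumors and 9.27, 5.93, 60.3 and 37.0 in GPC6 tumors, with high and low tumors in both groups (1.03, standard error 1.04). Inhbb ranged from 88.4 to 229.8, with a log2 fold change of 0.31 (standard error 0.35).

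Bmp1 (chr14:70474558-70520234) carries the name of the family but encodes a metalloprotease that trims procollagens and cleaves chordin. It had 1231, 999.96 and 1899 in 3xCR tumors and 469.9, 1739, 598 and 773 in GPC6 tumors. Of the GPC6 tumors 3 were under all 3xCR tumors and replicate 2 was among them, and the log2 fold change was -0.76 (standard error 0.46; limma, unadjusted p = 0.14).

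The secreted antagonists bind BMPs outside the cell, and 2 of the 3 described were tested, each with a positive log2 fold change (median 0.47, from 0.024 without 3xCR replicate 4 to 1.04 without 3xCR replicate 2). Chrd, chordin, had 89.3, 48.4 and 22.1 in 3xCR tumors and 196, 40.5, 98.5 and 53.5 in GPC6 tumors, highest in GPC6 replicates 1 and 3, the libraries with the highest summed neuronal markers (0.80, standard error 0.67). Nog (chr11:89300638-89302332), noggin, had 74.5, 18.6 and 16.6 in 3xCR tumors and 55.6, 25.7, 25.7 and 26.7 in GPC6 tumors. One tumor of each group stood above the others, and the log2 fold change of Nog was 0.13 with a standard error of 0.63, with a negative sign under edgeR (-0.16) and DESeq2 (-0.15).

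All 11 receptors were tested, 0 of them at an unadjusted limma p under 0.05. With DESeq2 the unadjusted p was 0.028 for Acvr1b and 0.044 for Acvr1c, where 12.1% of all genes were under 0.05. The 7 type I receptors, the kinases that phosphorylate Smads, had a positive log2 fold change for 3 genes and a negative one for 4. Bmpr1a (chr14:34410734-34503341), the most abundant of them, had 1378, 1239 and 917 in 3xCR tumors and 782, 1269.5, 1124 and 930.1 in GPC6 tumors. Its highest tumor held only 1.76 times its lowest, and the log2 fold change was -0.20 with a standard error of 0.25. The activin receptor Acvr1b (chr15:101174067-101213684) had 331, 219.5 and 192 in 3xCR tumors and 1141, 359.6, 540.2 and 255 in GPC6 tumors. GPC6 replicate 4 lay inside the 3xCR range and the other 3 above it, and the log2 fold change was 1.02 (standard error 0.50; limma, unadjusted p = 0.077). Acvr1c, which encodes ALK7, a receptor of activin B and Nodal, had 29.1, 8.37 and 1.38 in 3xCR tumors and 109.7, 7.90, 89.6 and 28.8 in GPC6 tumors. It was high in the same 2 GPC6 tumors as Chrd and the neuronal markers, and its value in 3xCR replicate 4 rested on 1 read (log2 fold change 2.21, standard error 1.13). The log2 fold change of Acvr1c was 1.27 without that library and 3.10 without 3xCR replicate 2. Tgfbr1 had 852, 893 and 1233 in 3xCR tumors and 527, 880.3, 677 and 790.1 in GPC6 tumors, where GPC6 replicate 2 alone reached the 3xCR range (-0.47, standard error 0.25). Acvrl1, the ALK1 receptor of endothelial cells, had 156, 379 and 639.5 in 3xCR tumors and 167, 203, 284 and 347 in GPC6 tumors, a mixed order (-0.48, standard error 0.49, and -0.018 without 3xCR replicate 4). Bmpr1b and Acvr1 had log2 fold changes of 0.53 and -0.09 (standard errors 0.43 and 0.26).

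The 4 type II receptors bind ligand and activate the type I partner, and 3 had a positive log2 fold change (median 0.26). Tgfbr2 (chr9:116084293-116175360), the type II receptor of TGF-beta, was the exception, with 609, 842 and 1983 in 3xCR tumors and 498, 681, 601 and 624 in GPC6 tumors. The GPC6 tumors were close together at 601 ± 76.5 (SD, n = 4), and 3xCR replicate 4 was the highest of all, as it was for Tgfb1 and Tgfb3. The log2 fold change was -0.75 with a standard error of 0.39 and -0.26 without 3xCR replicate 4. Acvr2a, an activin and BMP receptor, had 222, 170.2 and 146 in 3xCR tumors and 309, 281, 218 and 177 in GPC6 tumors. The groups overlapped in the middle of this range (0.44, standard error 0.29). Bmpr2 and Acvr2b were even, with log2 fold changes of 0.21 and 0.31 and less than a 2-fold range over the 7 tumors.

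Of the 8 Smads, 2 had a positive and 6 a negative log2 fold change (median -0.14, and -0.021 without GPC6 replicate 1). The split was 4 and 4 without 3xCR replicate 4, without GPC6 replicate 1 or without GPC6 replicate 3. Smad1, Smad2, Smad3 and Smad4 were steady, and each had a highest tumor under 2 times the lowest. Smad5 (chr13:56703010-56742377), whose exons overlap those of another gene on the same strand, had 1280.4, 1061 and 994 in 3xCR tumors and 631, 1341, 821 and 1245 in GPC6 tumors. The GPC6 values spread to both sides of the 3xCR values (-0.20, standard error 0.30). Smad7, the inhibitory Smad that TGF-beta and BMP signaling both induce, had 174, 170.2 and 217 in 3xCR tumors and 170.0, 173, 125 and 57.6 in GPC6 tumors. GPC6 replicate 2 alone was inside the 3xCR range, and the log2 fold change was -0.62 with a standard error of 0.42 (limma, unadjusted p = 0.18). Smad6, the BMP-induced inhibitory Smad, had a log2 fold change of -0.46 with a standard error of 0.53. Smad9 had 135, 64.2 and 19.3 in 3xCR tumors and 221, 71.1, 131 and 105 in GPC6 tumors, lowest in 3xCR replicate 4 as Id4 was (1.12, standard error 0.67, and 0.38 without that library).

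The spread over the 7 tumors was large for many of these genes. Over the 39 members tested that were above 0 in every library, the highest tumor held a median of 3.76 times the lowest, beside 2.81 over all genes tested. The ratio was under 2 for 9 members (Smad1, Smad2, Smad3, Smad4, Tgfb2, Acvr1, Bmpr1a, Acvr2b and Bmpr2), which are mostly Smads and receptors. It was above 10 for 7 members (Bmp7, Gdf10, Gdf15, Id4, Smad9, Inhba and Acvr1c), led by Acvr1c at 79.5. The median coefficient of variation within a group was 33.1% in 3xCR and 38.3% in GPC6 tumors, beside 24.3% and 36.3% over all genes tested. Acvr2a and Id3 were the 2 members whose log2 fold change stayed within 1.5 times its value with each library left out, and 11 of the 41 changed sign. 3xCR replicate 4 held the highest value of 12 members and the lowest of 12, and GPC6 replicate 1 the highest of 11 and the lowest of 10. Over all genes tested, 3xCR replicate 4 was highest for 23.9% and GPC6 replicate 1 for 31.3%, beside 29.3% and 26.8% of the members. 3xCR replicate 2 was highest for 8 members (19.5%, beside 4.72% of all genes), and GPC6 replicate 4 was lowest for 9 (22%, beside 15.6%).

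**Figure D4:**
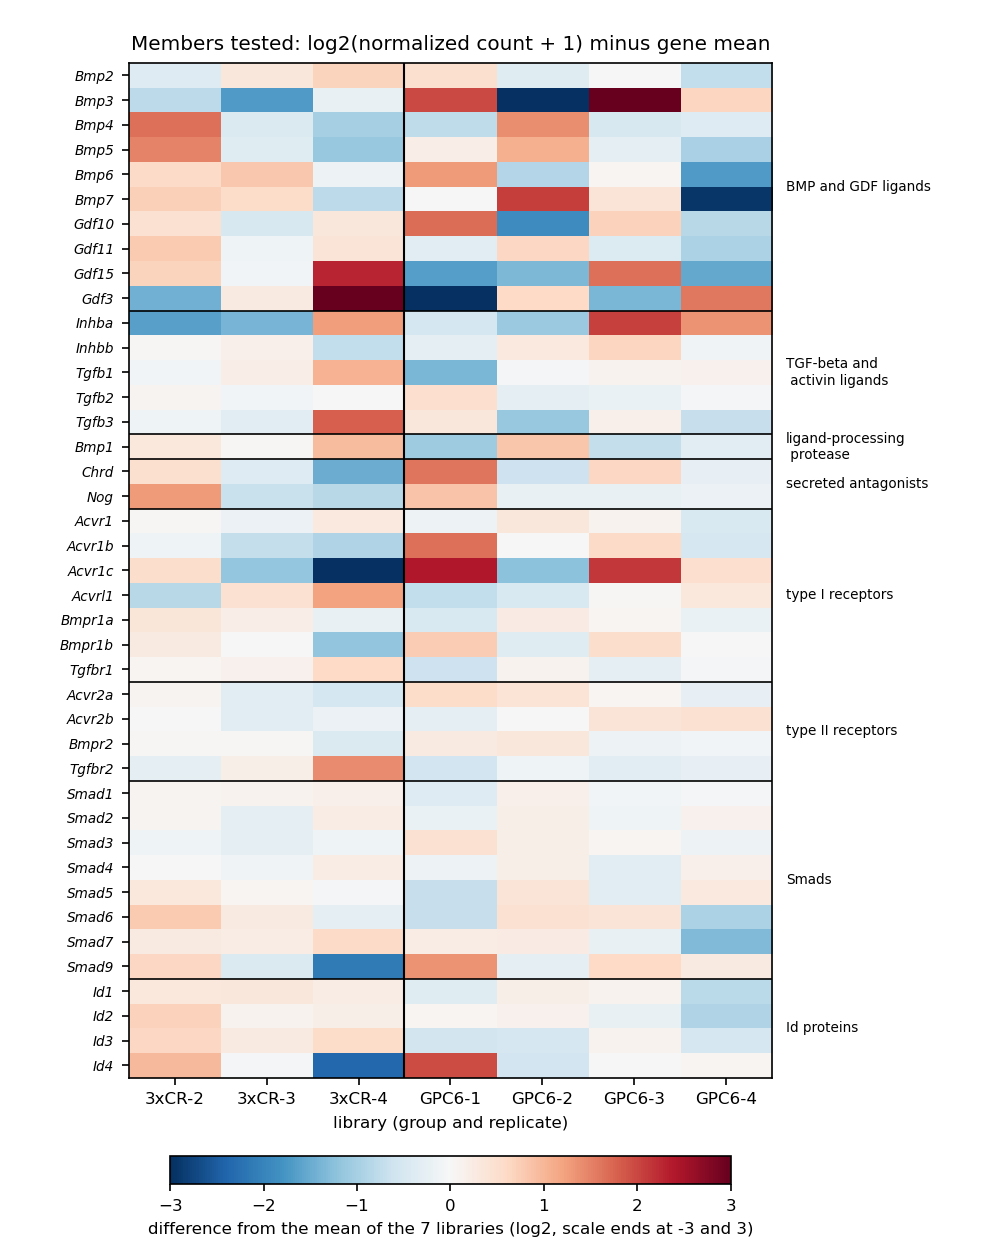
Heatmap of the 41 members tested (rows, grouped by class) in the 7 libraries (columns, 3xCR left of the line and GPC6 right of it); color gives log2(normalized count + 1) minus the mean of the gene, from -3 (blue) to 3 (red). The darkest cells are those of Bmp3, Bmp7, Gdf3 and Acvr1c, the rows of Smad1 to Smad4, Acvr2b, Bmpr2 and Tgfb2 are pale, and Id3 is above its mean in the 3xCR columns and GPC6 replicate 3.

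Several members had their highest or lowest values in the same libraries as marker sums, and these pairs were picked after their values were seen. The other libraries did not always follow. Tgfb3, for example, was lowest in GPC6 replicate 2 (63.2), which had the second most mural and fibroblast markers (3449). Bmp4 and Bmp5 were highest in 3xCR replicate 2 and GPC6 replicate 2, the libraries with the most oligodendrocyte precursor markers. Acvr1c, Acvr1b and Bmp3 were highest in GPC6 replicates 1 and 3, the libraries with the most neuronal markers. GPC6 replicate 1 was also the library with the most astrocyte and choroid plexus markers and the fewest proliferation markers. Tgfb1, Tgfb3, Tgfbr2, Acvrl1 and Gdf3 were highest in 3xCR replicate 4, which had the most microglial, endothelial, mural and fibroblast markers. Id4, Smad9 and Bmpr1b were lowest in that library, which had the fewest astrocyte markers. The part of cell makeup in these patterns was not tested.

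**Figure D5:**
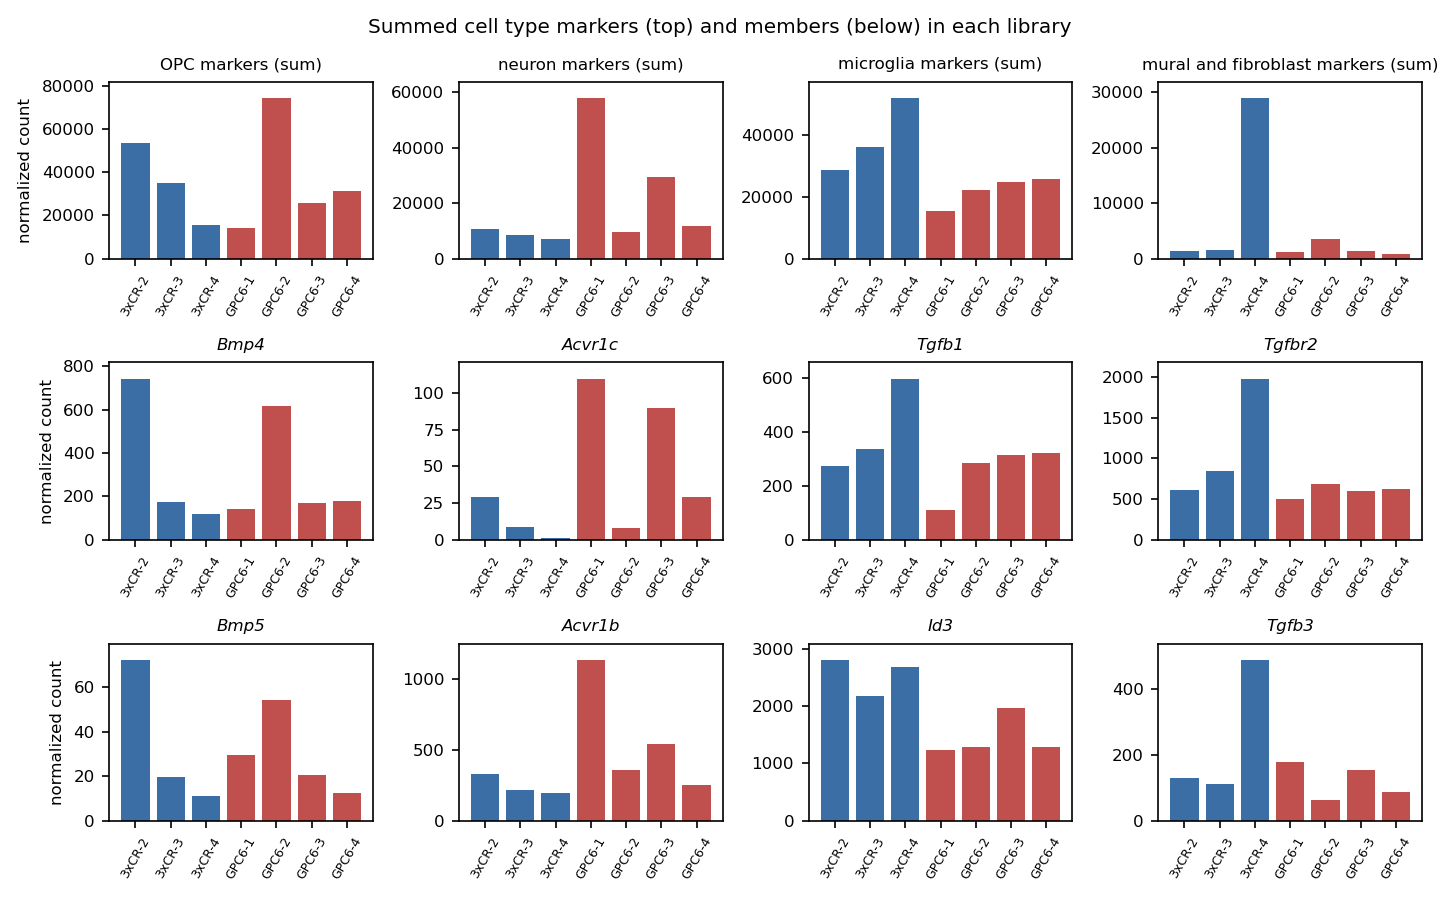
Normalized counts in each library as bars from 0 (blue, 3xCR replicates 2 to 4; red, GPC6 replicates 1 to 4); the top row gives summed marker genes of 4 cell types and each column below it 2 members set beside them. Bmp4 and Bmp5 peak with the precursor markers in replicate 2 of both groups, Acvr1c and Acvr1b with the neuronal markers in GPC6 replicates 1 and 3, and Tgfb1, Tgfbr2 and Tgfb3 in 3xCR replicate 4.

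Other genes of the pathway were read from 3 lists. The first held 38 modulators (co-receptors, latent TGF-beta binding proteins, follistatins, further antagonists, Smad ubiquitin ligases and corepressors), of which 33 were tested, 11 with a positive and 22 with a negative log2 fold change (median -0.20). Without 3xCR replicate 4 the split was 16 to 17 and the median -0.066, and without 3xCR replicate 2 the median was -0.42. Its most abundant member by mean count was Itgav, the integrin alpha V chain that helps release latent TGF-beta, with 2350.3, 1913 and 1884 in 3xCR tumors and 799, 4068, 1192 and 620.4 in GPC6 tumors. The GPC6 tumors lay on both sides of the 3xCR tumors (-0.71, standard error 0.59). The 3 other modulators with an unadjusted limma p under 0.05 or without overlap were chosen after their values were seen. Without overlap, 1 of the 33 was higher and 1 lower in GPC6, beside 2.8% and 3.52% of all genes. At an unadjusted limma p under 0.05, 1 of the 33 was lower, beside 1.92% of all genes. Such counts are near the shares over all genes and are no result about the list. Ltbp1, a latent TGF-beta binding protein, had an unadjusted limma p of 0.042 (-1.47, standard error 0.61), with 160.1, 109.8 and 488 in 3xCR tumors and 94.3, 114, 78.1 and 34.0 in GPC6 tumors. Zfyve9, the Smad anchor protein SARA, was higher without overlap, with 235, 258 and 153 in 3xCR tumors and 686, 265, 332 and 298 in GPC6 tumors. Bambi, a pseudoreceptor that BMP signaling induces, was lower without overlap, with 96.5, 92.1 and 119 in 3xCR tumors and 66.5, 75.1, 75.4 and 76.1 in GPC6 tumors (-0.47, standard error 0.27).

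The second list held 15 genes that TGF-beta commonly induces, all tested, of which 14 had a negative log2 fold change (median -1.20). Of these 15, 0 were at an unadjusted limma p under 0.05 and 0 without overlap. Without 3xCR replicate 4, the library with the most mural and fibroblast markers, 11 of 15 were negative and the median was -0.20. Col3a1, a fibrillar collagen and the most abundant gene of this list, had 111, 601 and 19289 in 3xCR tumors and 54.1, 1452, 159 and 102 in GPC6 tumors. Col1a1 and Col1a2 of this list are also counted among the mural and fibroblast markers. The third list held 7 BMP targets beyond the Id genes, of which 5 were tested, 1 with a positive and 4 with a negative log2 fold change (median -0.33, which was -0.47 when 3xCR replicate 2 was left out and -0.097 when GPC6 replicate 2 was). Bambi is counted both here and among the modulators. Hey1, the most abundant, had 1004, 579 and 530.4 in 3xCR tumors and 658, 800.3, 764 and 501 in GPC6 tumors (-0.01, standard error 0.29). Dlx5, a homeobox gene of forebrain interneurons and bone, went against Id3 and Bambi, with 9.32, 6.51 and 0 in 3xCR tumors and 98.9, 9.88, 24.8 and 56.6 in GPC6 tumors. All GPC6 tumors were above all 3xCR tumors, one of them by less than 1 normalized count, and the log2 fold change was 3.06 (standard error 1.07; limma, unadjusted p = 0.021, adjusted p = 0.73). Dlx5 was the only tested gene of this list with a positive log2 fold change, and the cause of its direction was not tested. Of the 5 tested, 1 was higher (Dlx5) and 1 lower (Bambi) without overlap, beside 2.8% and 3.52% of all genes. With 5 genes, these counts are no result about the list.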

How the data were processed

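RNA from endpoint brain tumors, 3 of the 3xCR and 4 of the GPC6 group, was sequenced from stranded poly(A) libraries. Per the labels and the methods, the authors aligned reads to mm10 with STAR 2.5.0a after FastQC and normalized counts with DESeq2 1.20.0. The deposited signal is thus a read count per gene over the size factor of its library (0.647 to 1.82), linear and not corrected for gene length. How reads that fit several genes were counted, and on which strand, is not given in the sources used here. The exons of 15 of 53 members overlap those of another gene, 14 of them on the other strand, so their counts may be shared. The table held 19282 entries in 7 columns, all mapped to a sample. Of these entries, 25 had names turned into dates and were left out (0.254% to 0.361% of reads).

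Groups came from the sample labels. The members, lists and tests were chosen with earlier results of these data known. Of 54 genes that the rule matched, 1 is not reported here and is in none of the counts of members. limma 3.58.1 in R 4.3.3 (moderated variance with a trend, two-sided, Benjamini-Hochberg adjustment over all genes tested) was run on log2(normalized count + 1) for the 14782 genes whose normalized counts averaged at least 10, without covariates. Fold changes are on that scale, which understates those of low genes. Every value (100%) gave whole reads to within 0.01, and edgeR 4.0.16 (quasi-likelihood test) and DESeq2 1.42.0 (Wald test) were run on these reads as alternatives. Also tried were 0.5 or 5 as the pseudocount, a minimum mean of 50 or none, libraries brought to the same total or upper quartile, no variance trend, weights per library, a replicate block, and leaving out each library. For single values an exact two-sided permutation test was used, which cannot go below p = 0.057 for 3 against 4. The fits were tested on simulated data. p-values measure the spread between these tumors, 1 library each. Named genes were members without overlap or at an unadjusted p under 0.05, the Id and Tgfb genes, the most abundant member and those of largest and smallest fold change of each class, and, of the 3 lists, the most abundant gene and those at an unadjusted p under 0.05 without overlap. Bmp4, Bmp5, Gdf3, Inhbb, Acvr1b, Tgfbr1, Bmpr1b, Acvr1, Bmpr2, Acvr2b, Smad6, Ltbp1, Zfyve9 and Bambi were added after their values were seen. Levels were compared per kb of merged exons (GENCODE vM21, GRCm38). Promoters came from RefSeq; Id1 has no entry there.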

Additional observations from a re-analysis of the deposited data

Results flagged for a closer look

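In the GPC6 group of 4 tumors, 41 members were examined for a single tumor far from the other 3 (Dixon's ratio of the gap to the range at the 95% level), and 4 showed one, where chance gives about 2.05 of 41. Id3 had 1964 normalized counts in GPC6 replicate 3 and 1243 to 1291 in the others, so the tumor nearest to the 3xCR group is the exception among the GPC6 tumors. Gdf15 had 54.1 in the same tumor and 4.64 to 5.93 in the others. Tgfb1 had 111 in GPC6 replicate 1 and 286 to 320.0 in the others. Nog had 55.6 in GPC6 replicate 1 and 25.7 to 26.7 in the others. GPC6 replicate 1 also stood at one end of the first principal component.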

How the results depend on the processing

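Of the 22 members named by the rule, 15 kept the direction of their log2 fold change under all 18 settings, Id1, Id2 and Id3 among them. Sign changes were found for Tgfb2 (0.0365 with an equal total, 0.0093 with edgeR and 0.0245 with DESeq2), Bmp7 (0.43 with edgeR and 0.46 with DESeq2), Nog (-0.16 and -0.15 with the same tools), and Gdf15 (0.87) and Tgfb3 (0.19) with weights per library. With 1 library left out, the log2 fold change spanned -1.01 to 0.66 for Bmp7, -0.18 to 0.0755 for Tgfb2, -0.24 to 0.81 for Nog, -0.082 to 1.58 for Id4 and -0.36 to 0.0069 for Smad5. The cause was not tested. Leaving out each library was tried for the gene lists, and shares of all genes without overlap were set beside those of the members, after the data were seen.

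Weights per library called 1962 of the 14782 genes tested at an adjusted limma p under 0.05. Of the 41 members they called 4 (Acvr1b, Acvr1c, Bmp3 and Inhba, all higher in GPC6 tumors), a smaller share than over all genes. DESeq2 called 9 genes and 0 members. With 1 library left out, 0 genes and 0 members were called, and the median log2 fold change of the members lay between -0.29 and -0.0597. Without overlap stood 5 members after scaling to an equal upper quartile (Id1, Id2, Id3, Smad7 and Tgfbr1; 12.2%, beside 6.72% of all genes) and 3 to 10 with 1 library left out, 10 without 3xCR replicate 2 (24.4%, beside 20.9%) and 9 without GPC6 replicate 2 (22%, beside 16.1%). The count without overlap has no value under another test, weights, variance model or block. Unadjusted calls over all genes split into 405 higher and 284 lower, into 485 and 228 with an equal total and into 327 and 388 with an equal upper quartile.

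The replicate numbers were not used to pair the tumors in the main fit, and GPC6 replicate 1 has no partner. The deviations of tumors with the same number correlated at -0.19, 0.12 and 0.30, and those of tumors with different numbers at -0.46 to 0.50. So few values cannot exclude a batch or litter shared by the same number. With the replicate number as a block, 0 genes passed adjustment and 678 had an unadjusted p under 0.05 (689 without it), the median log2 fold change of the members was -0.0964, Id3 was at -0.78 (limma, unadjusted p = 0.027), and Nog (-0.13) and Smad5 (0.0069) changed sign.

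The 12 untested members averaged fewer than 10 normalized counts, and the reason for their low counts was not tested. DESeq2 gave no adjusted p to 19 members, Acvr1c and Bmp3 among them, nor to 39.0% of all genes. With 3 tumors against 4, differences of the size of the tumor-to-tumor spread could not be resolved.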
